A study of Solanum lycopersicum with 36 samples.

Results

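The comparison set wild type tomato leaves of 24 h against wild type leaves of 3 h in an experiment on cold and sterol glycosides. The plants were Solanum lycopersicum, cultivar Micro-Tom, a dwarf tomato, at an age of 1 month when the sampling began. Leaves 3 and 4 of each plant were sampled. The libraries compared, 3 of 24 h and 3 of 3 h, come from the plants labelled WT that were grown beside the line SGT1ami. A wild type grown in a separate experiment for the line SGT2ox, with 3 libraries at each time, served for comparison. Genes were chosen by their level alone, as those with a deposited value of 10 or more in at least 3 of the 6 libraries compared. This gave 21394 of the 29285 genes in the table (73.1%). A deposited value is a gene's read count divided by a size factor for its library, so values compare libraries and not genes of different length.

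Of the 21394 genes, 19150 had 10 or more in all 6 libraries. A further 585 passed through the 24 h libraries alone, with all 3 libraries of 3 h below 10, and 325 passed through the 3 h libraries alone. Genes of these last kinds had to differ between the times. The 7891 genes left out include 2789 with no read in any of the 6 libraries. The third highest value was 10.1 for the gene just inside the limit and 9.99 for the gene just outside it.

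Tomato is a chilling-sensitive species. In plants, cold is known to alter membranes and to set off waves of transcription, in which early regulatory genes precede genes for protective proteins and metabolites. Sterol glycosyltransferases, the enzymes that the lines of this study alter, attach a sugar to membrane sterols. Jasmonate, named in the title of the study, is a lipid-derived hormone of stress and defence. Leaf transcripts also follow the hour of the day through the circadian clock and light.

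The labels give each library a time and a genotype but no temperature, while the protocols describe both plants moved to 4°C and plants kept warm. By these times, leaves of 24 h and of 0 h belong to the same hour of the day, and leaves of 3 h to a later one. Temperature, time since the start and hour of the day cannot be told apart here. No identifier was found among the 41476 entries of the reference table used here (0 matches). Genes are therefore given by identifier without a function, and the 29 pathway and marker lists drawn up for this comparison, leaf markers among them, had no members to describe. The lines' targeted genes could not be looked up for the same reason.

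The libraries were deep and alike. They held 38971364 to 40010960 reads at 24 h and 38991283 to 39423868 reads at 3 h. In 6 pairs of replicates the reads differed by 2.65 to 3.72 times sampling noise (mean chi-square per gene), or 1.33 to 1.86 times if both mates of each fragment were counted. No library was therefore set aside as a second copy. Triplicates are described as biologically independent, without saying what made them so, and the p-values measure the spread among these 6 libraries and the others of their experiment. The libraries of 24 h detected 23987 ± 47.6 genes and those of 3 h 23957 ± 58.4 (mean ± SD, n = 3 each), a difference within their spread (exact permutation test, two-sided, p = 0.5).

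Reads were less concentrated in the leading genes at 24 h. The 100 genes with the most reads in a library held 20.9% ± 0.0586 of its reads at 24 h and 25% ± 0.249 at 3 h (mean ± SD, n = 3 each). The groups did not overlap (exact permutation test, two-sided, p = 0.1, the smallest that 3 against 3 allows). Further down the ranking the order was the other way round. It took 767 to 775 genes to reach 50% of the reads at 24 h and 820 to 842 genes at 3 h, again without overlap (exact permutation test, two-sided, p = 0.1). The lists of the top 100 genes at 24 h and the top 100 at 3 h, by mean value, had 31 genes in common. Of the top 100 at 24 h, 72 were at least 2-fold higher than at 3 h and 4 were at least 2-fold lower. Of the top 100 at 3 h, 56 were at least 2-fold lower at 24 h and 4 were at least 2-fold higher. Over all genes tested, 22.9% were higher and 19.3% lower by that much. Each list was picked by values that also set the change, which favours rises in the first list and falls in the second.

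How far did the leaf transcriptome at 24 h differ from that at 3 h? Of the 21394 genes, 17768 passed an adjusted p of 0.05 (83.1% of genes tested; limma on log2(value + 1), Benjamini-Hochberg). Rises numbered 9311 (43.5%) and falls 8457 (39.5%). A change of at least 2-fold was called for 9016 genes (42.1%), with 4896 rises (22.9%) and 4120 falls (19.3%). The remaining 3626 genes did not pass the test, which does not show that they were equal. The lines of the experiment enter this test through the spread alone, and a fit of the 9 wild type libraries of the experiment called 17761 genes.

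How rises and falls balance depends on the scaling. Scaled by library totals, the median gene stood at -0.35 on the log2 scale instead of 0.05, a shift of -0.40. The called genes then split into 6704 higher and 11469 lower (36.9% higher instead of 52.4%), and those past 2-fold into 3565 and 6110. With that scaling 781 of the genes called higher were called lower. All 4120 falls past 2-fold were still called lower, and 4799 of the 4896 rises past 2-fold were still called higher. Rises and falls below are relative to the deposited scaling. In leaf tissue, more transcript per cell and more cells of a type cannot be told apart.

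The largest changes were more often rises under both scalings. Among genes called between 2-fold and 4-fold, rises and falls were equal in number, at 2608 each. Between 4-fold and 16-fold there were 1688 rises and 1329 falls, and at 16-fold or more 600 rises and 183 falls. With library totals falls outnumbered rises in both lower classes (1828 rises and 3826 falls, then 1254 and 2020) and rises outnumbered falls at 16-fold or more (483 and 264). At the small end, 2538 rises and 2364 falls of under 1.5-fold passed the test. The median standard error of a log2 fold change was 0.086.

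**Figure D1:**
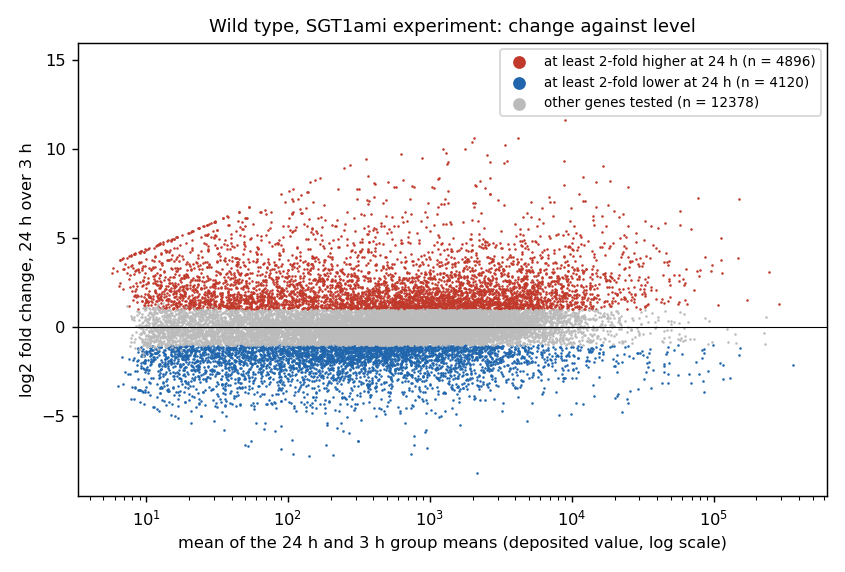
Log2 fold change of 24 h over 3 h in wild type leaves of the SGT1ami experiment (vertical) against the mean of both group means of the deposited value (horizontal, log scale), 1 point per gene. Red points are the 4896 rises of at least 2-fold, blue points the 4120 falls of at least 2-fold, and the red points reach farther from 0 than the blue ones.

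The balance differed with a gene's read value, taken as the mean over the 6 libraries and not set per length. Among the 708 genes with a mean of 10000 or more, 330 rose at least 2-fold (46.6%) and 121 fell at least 2-fold (17.1%), with a median log2 change of 0.77. Among the 6855 genes between 1000 and 10000, 1702 rose (24.8%) and 840 fell (12.3%) by that much. The 8789 genes between 100 and 1000 showed the opposite order, with 1595 rises (18.1%) and 1876 falls (21.3%). Below 100, 1269 of 5042 genes rose (25.2%) and 1283 fell (25.4%). With library totals, genes of 10000 or more still had more rises than falls (284 and 170). The order turned round between 1000 and 10000 (1193 rises and 1316 falls), and falls outnumbered rises farther between 100 and 1000 (1115 and 2882) and below 100 (973 and 1742).

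The pattern of the most extreme rises was near silence at 3 h and many reads at 24 h. Solyc01g096720 had the largest rise by fold among genes with a mean of at least 50. It stood at 17687, 17989 and 18353 in the libraries of 24 h and at 1.93, 3.87 and 11.6 in those of 3 h. Every library of 24 h lay far above every library of 3 h, and its log2 fold change was 11.64 (SE 0.30, adjusted p = 2.8e-24, limma). The 3 h libraries held 2, 4 and 12 reads of it, so the size of the fold is less certain than its direction. At 0 h it had stood at 57.3 to 71.1, above all libraries of 3 h. The other wild type gave nearly the same level at 24 h, with 17591 to 17884 there and 2.33 to 3.7 at 3 h, but no read at 0 h.

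A second kind of rise took place in a transcript with many reads throughout. Solyc09g091660 gained most in value. It stood at 437135, 443310 and 440978 at 24 h and at 50065, 51377 and 49424 at 3 h, without overlap. This was an 8.76-fold rise (log2 fold change 3.13, SE 0.03, adjusted p = 3e-35, limma). Ranked by mean value, which is not set per length, it was number 1 at 24 h with 0.88% of the reads and number 76 at 3 h with 0.133%. Its 0 h libraries held 21114 to 21898, so in this wild type its level was higher at 3 h than at 0 h and higher again at 24 h. In the other wild type it stood at 149439 ± 2891 at 24 h and 9062 ± 44.3 at 3 h (mean ± SD, n = 3 each), a 16.5-fold rise. The step before it ran the other way there, since the 0 h mean was 28251 ± 429, above that of 3 h.

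The falls had the same pair of forms. Solyc01g090340, the largest fall by fold, stood at 15.1, 7.49 and 20.5 at 24 h and at 3983, 4382 and 4480 at 3 h. The groups lay far apart (log2 fold change -8.22, SE 0.24, adjusted p = 3.3e-23, limma). Its 0 h libraries held 2857 to 2923, nearer to those of 3 h than to those of 24 h. The other wild type showed 38.6 to 56.3 at 24 h and 3159 to 3523 at 3 h, with 405.4 to 466.7 at 0 h.

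Solyc10g086580 lost most in value. It stood at 138248, 133373 and 131711 at 24 h and at 599831, 579177 and 604407 at 3 h, a level 4.42-fold lower at the later time (limma log2 fold change -2.14, SE 0.03, adjusted p = 1.8e-32). In the ranking by mean value it was number 21 at 24 h with 0.268% of the reads and number 1 at 3 h with 1.57%. At 0 h it had also been number 1, with 267957 to 276288, so its level was highest at 3 h and lowest at 24 h.

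**Figure D2:**
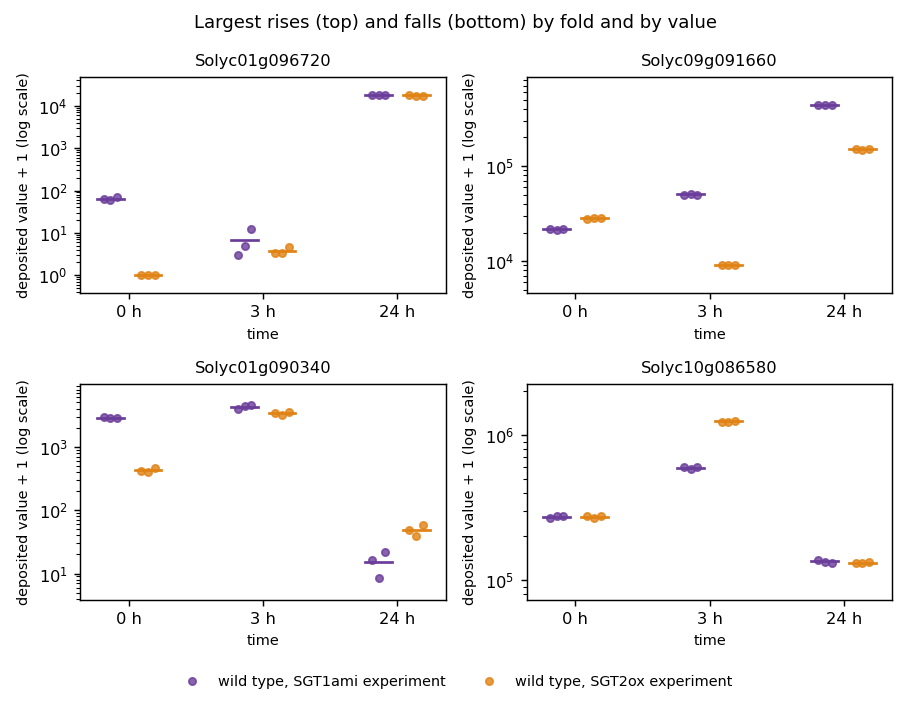
Deposited value + 1 (vertical, log scale) at 0, 3 and 24 h in the wild type of the SGT1ami experiment (purple) and of the SGT2ox experiment (orange) for the largest rise by fold and by value (top row) and the largest fall by fold and by value (bottom row). Points are libraries and bars are means of 3 libraries, and in each panel the 24 h libraries of both wild types lie apart from their 3 h libraries in the same direction.

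The ranges over the whole rankings were as follows. The 10 largest rises by fold had 24 h means of 1246 to 18010 and 3 h means of 0.642 to 6.11. The 10 largest falls by fold had 24 h means of 0 to 16 and 3 h means of 104.3 to 4282. All 10 rises and all 10 falls were called in the same direction in the other wild type, where 39.9% of genes tested were called higher and 41.8% lower. By value, the 5 largest rises had 24 h means of 217137 to 440474 and 3 h means of 2007 to 168573, and the 5 largest falls had 24 h means of 26992 to 134444 and 3 h means of 189072 to 594472.

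Some genes had reads at only 1 of the 2 times compared. Without a read in any 3 h library, 80 genes had a value of 10 or more in all 24 h libraries, with a median 24 h mean of 32 and a highest of 708.4. Against a floor of 3 reads per library, that highest one was at least 245-fold higher at 24 h. Of these 80 genes, 36 were at 0 in all 3 libraries of 0 h as well. In the other wild type, 55 of the 80 had no read in any 3 h library, 44 had 10 or more in all 24 h libraries, and 33 did both. The reverse, no read at 24 h and 10 or more in all 3 h libraries, was found for 14 genes, with 3 h means of 15.8 to 104.3. The highest of these was at least 27.5-fold lower at 24 h. All 14 had reads in at least 1 library of 0 h. In the other wild type, 12 of the 14 had 10 or more in all 3 h libraries, 3 had no read in any 24 h library, and 2 did both. The 80 genes passed the filter through the 24 h libraries alone and the 14 through the 3 h libraries alone. No share over all genes stands beside the counts from the other wild type, so they only describe these 80 and 14 genes.

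Where had these genes stood at 0 h? The changes from 0 h share libraries with the change from 3 h to 24 h, so the levels are given side by side as a description. The 4896 rises of at least 2-fold had median levels of 202.9 at 0 h, 206.3 at 3 h and 947 at 24 h. Their 0 h level was nearer on the log2 scale to that of 3 h than to that of 24 h in 4283 genes (87.5%). The 4120 falls of at least 2-fold had median levels of 353.9 at 0 h, 408.2 at 3 h and 107.6 at 24 h, and 3321 of them (80.6%) stood nearer to 3 h at 0 h. Over all 21394 genes this share was 72.9%, with medians of 452.8, 456.6 and 457.2. The 0 h level lay above both later levels in 107 of the rises and below both in 258 of the falls. It lay below both in 2241 rises and above both in 1658 falls. Of all 21394 genes, 6550 had a 0 h level below both later levels and 6361 had one above both. The lists were chosen by the gap between 3 h and 24 h, which bears on these counts.

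The rises came to hold a majority of all reads. The 4896 rising genes took 51% ± 0.114 of a library's reads at 24 h and 13.7% ± 0.0519 at 3 h (mean ± SD, n = 3 each). The 4120 falling genes took 6.42% ± 0.0396 at 24 h and 31.4% ± 0.162 at 3 h. The genes were chosen on these libraries, so the shares describe them and are not a test. The 0 h libraries, which entered the choice only through the spread in the fit, gave 14.6% ± 0.0574 for the rising and 25.8% ± 0.191 for the falling genes. In the other wild type, whose libraries were not used in the choice, the rising genes held 37.3% ± 0.157 at 24 h and 8.67% ± 0.0204 at 3 h. The falling genes held 11.3% ± 0.0129 at 24 h and 38.8% ± 0.165 at 3 h there.

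**Figure D3:**
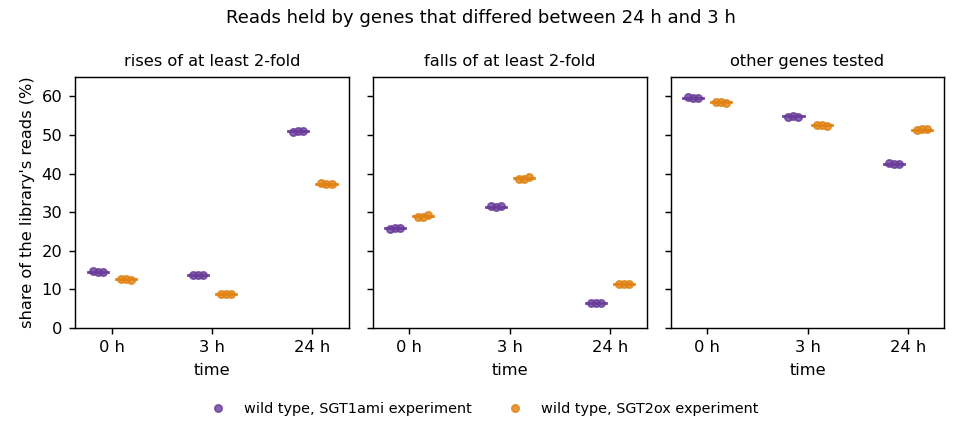
Share of each library's reads (percent) held by the 4896 genes that rose at least 2-fold, the 4120 that fell at least 2-fold and the other genes tested, at 0, 3 and 24 h in the wild type of the SGT1ami experiment (purple) and of the SGT2ox experiment (orange). Points are libraries and bars are means of 3, and the rising genes hold 51% at 24 h in the SGT1ami experiment against 13.7% at 3 h.

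The same contrast in the other wild type shares no library with this one. There 17445 of 21345 genes were called (81.7%), of which 8847 changed at least 2-fold (41.4%), with 4472 rises (21%) and 4375 falls (20.5%). Of the 4896 rises found here, 4634 were tested there. Of those, 4194 were called higher there too (90.5%, against 39.9% of all genes tested there), 330 were not called and 110 were called lower. Past 2-fold in both were 3393 rises, which is 73.2% of the 4634 tested there and 78.4% of the 4330 rises there that were tested here. Of the 4020 falls tested there, 3660 were called lower too (91%, against 41.8% of all genes), 259 were not called and 101 were called higher. Past 2-fold in both were 2904 falls, 72.2% of the 4020 tested there and 68.9% of the 4217 falls there that were tested here. Over the 20823 genes tested in both, Pearson's r of the log2 changes was 0.86 and Spearman's rho 0.83. These describe genes, which do not replicate each other, within 2 sets of libraries.

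**Figure D4:**
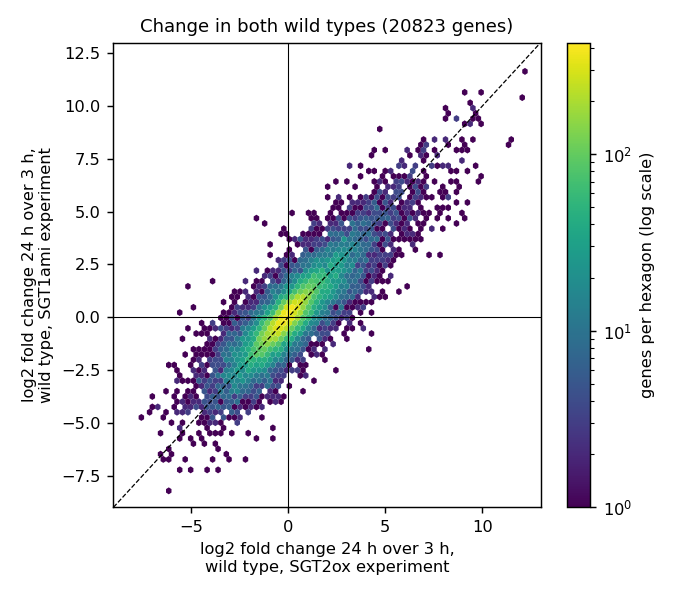
Log2 fold change of 24 h over 3 h in the wild type of the SGT1ami experiment (vertical) against that in the wild type of the SGT2ox experiment (horizontal) for 20823 genes tested in both. Colour gives the number of genes per hexagon on a log scale and the dashed line marks equal change (Pearson's r across genes 0.86).

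The size of the change often differed between the wild types. A test of the difference itself, in a fit of all 36 libraries, called 12483 of 21394 genes (58.3%), 7053 with a more positive change in the SGT1ami experiment and 5430 with a more negative one. The calls were 33% and 25.4% of genes tested. The difference was at least 2-fold for 1896 genes (8.86%) and 1823 genes (8.52%), 3719 in all (17.4%). With library totals the median difference moved to -0.53 from 0.08, the calls split into 1895 more positive and 13173 more negative, and 5789 genes passed 2-fold. Opposite changes called in both wild types were found for 1339 genes and the same direction for 13714. For 59 genes both opposite changes were at least 2-fold, 35 of them higher at 24 h here and lower in the SGT2ox experiment and 24 the other way round. The experiments were run independently, so any batch cannot be told apart from the experiment.

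The identifiers at both ends of this difference were followed library by library. Solyc02g038810.1, at the positive end, stood at 101.8, 132.4 and 124.6 at 24 h and at 49.2, 29 and 63.6 at 3 h in the SGT1ami experiment. It thus rose by 1.38 on the log2 scale (SE 0.27, adjusted p = 2.9e-05, limma). The other wild type had 2.08 to 2.16 at 24 h and 96.3 to 112.4 at 3 h, with 2 reads in each 24 h library. The difference of the changes was 6.42 (SE 0.58, adjusted p = 1.2e-12, limma), a size that rests on those few reads.

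Solyc10g019227.1, also at the positive end, had a small change here and a loss of all reads in the other wild type. It stood at 155.8, 134.9 and 114.3 at 24 h and at 121.6, 87.1 and 111.7 at 3 h, and the groups overlapped. Its small change of 0.34 passed the test (SE 0.14, adjusted p = 0.033, limma), but not without replicate 1 at 24 h (0.23), replicate 2 at 24 h (0.33) or replicate 2 at 3 h (0.20), nor in the fit of wild types alone (0.34). It turned to -0.06 with library totals. In the other wild type it had no read in any 24 h library and 45.7 to 56 at 3 h, at least 15.6-fold lower at 24 h. The difference of the changes passed the test (adjusted p = 6.9e-24, limma), but with no reads at 24 h there its size is set by the pseudocount, at 6.005 with 1, 3.78 with 5 and 6.99 with 0.5. It was smaller than that of Solyc02g038810.1 with a pseudocount of 1 and larger with a pseudocount of 0.5 (6.99 against 6.67), by edgeR (9.02 against 6.84) and by DESeq2 (8.34 against 6.92).

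At the negative end, Solyc08g067340 fell here and rose in the other wild type. It stood at 879.7, 768 and 787.3 at 24 h and at 1428, 1504 and 1458 at 3 h, without overlap (log2 fold change -0.85, SE 0.06, adjusted p = 2.1e-13, limma). The other wild type had 1470 to 1782 at 24 h and 59.2 to 84.6 at 3 h, 21.6-fold higher at 24 h. Both wild types had higher levels at 24 h than at 0 h, where this one held 214.9 to 246.7 and the other 32 to 46.9.

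Solyc08g008480 stood at 17.6, 30 and 36 at 24 h and at 140, 165.5 and 150.3 at 3 h here, a 5.46-fold fall (limma log2 fold change -2.46, SE 0.31, adjusted p = 3.5e-08). In the other wild type it had 388.6 to 457.5 at 24 h and 53.1 to 93.1 at 3 h, 5.95-fold higher at 24 h. At 0 h both wild types were alike in it, with 12.8 to 38.6 here and 16.2 to 31.3 there. Its level here was high at 3 h alone, while there it was highest at 24 h.

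**Figure D5:**
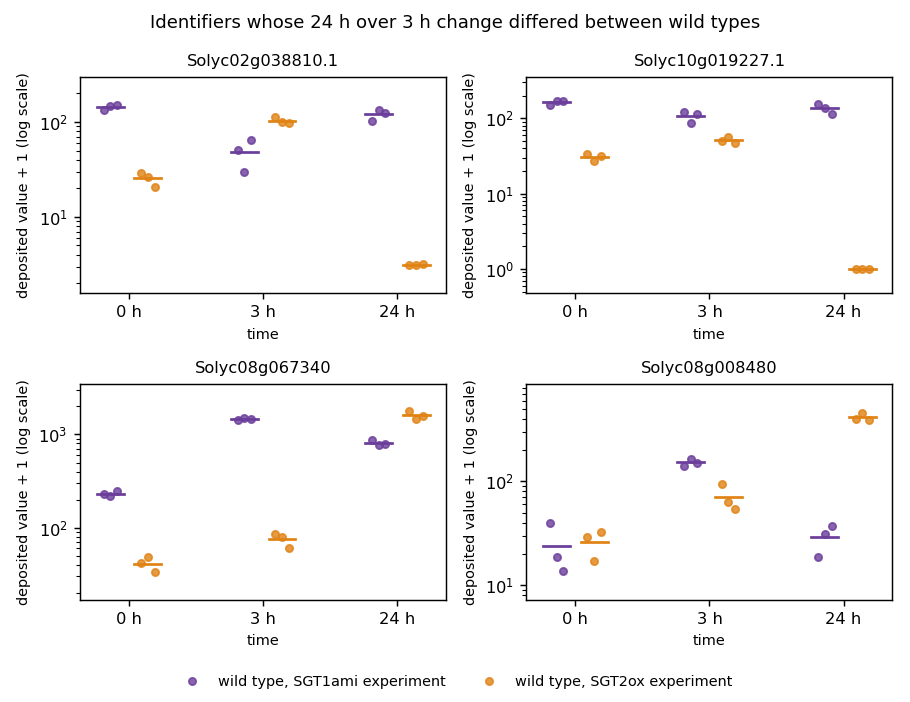
Deposited value + 1 (vertical, log scale) at 0, 3 and 24 h in the wild type of the SGT1ami experiment (purple) and of the SGT2ox experiment (orange) for the identifiers with the most positive (top row) and most negative (bottom row) difference of the 24 h over 3 h change. Points are libraries and bars are means of 3, and in the bottom row the purple points of 24 h lie below those of 3 h while the orange ones lie above.

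The changes were spread over the whole genome. In tomato identifiers the digits after Solyc name the chromosome. Over the 12 chromosomes the share of tested genes that rose at least 2-fold was between 18.7% (chromosome 11) and 24.7% (chromosome 2). The share that fell was between 16.8% (chromosome 4) and 22.1% (chromosome 10). Of the 64 genes on unplaced sequence, whose median value was 26.2, 11 rose at least 2-fold (17.2%, against 22.9% of all genes tested). Of the same 64 genes, 0 fell at least 2-fold (limma), against 19.3% of all genes tested. On the same libraries, the count of such falls was also 0 by edgeR, by DESeq2 and at an unadjusted p under 0.05, and 2 with library totals. The lowest log2 fold change among the 64 was -0.89 (Solyc00g500087, limma), so with the deposited scaling none reached a 2-fold fall, called or not. Of all genes tested with a mean under 100, 25.4% fell at least 2-fold. The median standard error was 0.32 for genes with a mean under 100, against 0.086 over all genes tested. The cause of the missing falls was not tested. Identifiers that carry a version suffix had lower values, not set per length (median 148.3, against 635.9 without one), and 29.3% of them rose and 22.8% fell at least 2-fold, against 21.3% and 18.4% of those without a suffix.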

How the data were processed

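The study sequenced poly(A) RNA of tomato leaves in 36 libraries (12 groups of 3, taken from the titles). Per the submitters' processing notes Trimmomatic, STAR, featureCounts and DESeq2 were used. Their versions, the genome build, the annotation and the use of strand are not stated in the sources used here. Overlapping genes and near-identical copies can therefore share reads. The deposited values are a signal, gene counts divided by the authors by a size factor per library. In every library 100% of values came out as whole reads within 0.01, and each factor divided by the median-ratio factor that DESeq2 would give was 1. Of values of 2 to 11 reads, 78.8% were even, so mates were mostly counted as separate reads. Libraries held 36602841 to 43742623 reads. Floors of 3 reads cover counting error only.

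The test was limma 3.58.1 in R 4.3.3, run on log2(value + 1) with a trend of variance on level, which understates changes of low genes. All 18 libraries of the SGT1ami experiment entered, as 6 groups with 12 residual degrees of freedom. P-values were adjusted by Benjamini-Hochberg over all genes tested and called at 0.05. The other wild type was fitted likewise on its own experiment, and the difference of changes on all 36 libraries. The test was checked on simulated counts. The rule for named genes took, among called genes with a mean of at least 50 and no overlap between the times, the largest changes by fold and by value. For the difference it took the most positive and most negative called genes with a mean of at least 50. As no table names the identifiers, the first rise and the first fall of each ranking and 2 at each end of the difference are printed. Genes, lists and tests were chosen with earlier results of these data known. Alternatives were edgeR 4.0.16 and DESeq2 1.42.0 on recovered reads, TMM factors, library totals, other pseudocounts, filters and sets of libraries, each replicate left out, and a replicate block. SciPy 1.17.1 gave the permutation tests.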

Additional observations from a re-analysis of the deposited data

Results flagged for a closer look

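The change between 3 h and 24 h was compared between the wild type of the SGT1ami experiment and that of the SGT2ox experiment by a test of the difference itself (limma, all 36 libraries), and 12483 genes differed. Among the identifiers named above, 7 did so. At the positive end stood Solyc02g038810.1 (difference of log2 changes 6.42) and Solyc10g019227.1 (6.005), both with 2 reads or none in each 24 h library of the SGT2ox experiment, so that their sizes and their order depend on the pseudocount and the tool. Solyc08g067340 (-5.28, SE 0.25, adjusted p = 1.8e-21, limma) and Solyc08g008480 (-5.05, SE 0.42, adjusted p = 1.2e-13, limma) changed in opposite directions in the wild types. For both identifiers, every 24 h library lay below every 3 h library in the SGT1ami experiment. In the SGT2ox experiment every 24 h library lay above every 3 h library.

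The remaining identifiers differed in size and not in direction. Solyc09g091660 rose less in the SGT1ami experiment (-0.91, SE 0.05, adjusted p = 3.1e-19, limma; -1.53 with library totals), with a higher level there at 24 h and at 3 h than in the other wild type. Solyc01g090340 fell farther (-2.09, SE 0.32, adjusted p = 3.2e-07, limma). Solyc10g086580 fell less (1.09, SE 0.05, adjusted p = 4.4e-21, limma; 0.47 with library totals): both wild types had close levels at 24 h, 134444 ± 3397 here and 131528 ± 438.3 there, while the 3 h means were 594472 ± 13442 and 1237503 ± 15284 (mean ± SD, n = 3 each). For Solyc01g096720 no difference was detected (-0.56, SE 0.57, adjusted p = 0.42, limma).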

How the results depend on the processing

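Counts of called genes in either direction stayed within 1.5 times of the reported ones, with 1 exception: with library totals 5789 genes differed at least 2-fold between the wild types, instead of 3719. Library totals moved counts of 1 direction further: more positive differences numbered 1895 instead of 7053, more negative ones 13173 instead of 5430, and falls of 4-fold to 16-fold 2020 instead of 1329. The 24 h against 3 h count was 16075 of 18463 genes tested (filter at 50) to 18748 of 26496 (no filter), and 17366 to 17445 with a replicate left out. Past 2-fold it was 7602 (filter at 50) to 10145 (no filter), and 8956 to 9024 with a replicate left out. The same contrast in the SGT2ox experiment gave 16975 to 17066 and 8818 to 8857 with a replicate left out, and the difference of changes 11991 to 12185 and 3642 to 3712. edgeR called 17793 genes and DESeq2 17705. With a replicate left out, the number of genes detected at 24 h minus 3 h was 3 to 61 and the share of the top 100 genes -4.20 to -3.95 percentage points. The change of Solyc10g019227.1 turned to -0.061 with library totals (adjusted p = 0.7, limma), and did not pass with TMM (0.24) or when only the groups compared were fitted (0.34); the cause was not tested. Its difference of changes was 3.78 to 9.02 over the settings that keep all libraries. With library totals the difference was -1.53 for Solyc09g091660 and 0.47 for Solyc10g086580. The difference for Solyc01g096720, which was not called, was -1.10 with library totals and -1.03 to 0.021 with a replicate left out, turning positive without replicate 3 at 3 h (0.0212). The remaining values of named genes kept their direction and their side of the threshold in each setting run.

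Replicates with the same number at 24 h and 3 h did not deviate together (correlations -0.0021 to 0.00084 over genes with a mean of at least 50, and 0 of 6 libraries correlated best with their own number). This cannot show whether samples were paired by design, and the labels do not say what the numbers mean. With a replicate block 17758, 17419 and 12444 genes were called for this contrast, the SGT2ox experiment and the difference. Low reads limit the fold of genes near 0 at one time.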
